A study of Rattus norvegicus with 6 samples.

Results

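Genes of fatty acid uptake and oxidation were followed in newborn rat heart myocytes kept in culture and exposed to a chemical or a mechanical growth stimulus. The members were the 39 genes of a fixed list, and 38 of them had a probe set of their own among 14217 named genes on the array. Where a gene had several probe sets, as 11 members did, the one with the highest mean over the 6 arrays was used. The remaining member, Acaa1a, was represented only by a probe set that also names Acaa1b, and it is not analysed here. By role, the 38 genes comprised 5 of uptake and binding, 3 acyl-CoA synthetases, 4 of the carnitine shuttle and 13 of mitochondrial β-oxidation. The others were 3 genes of electron transfer, 2 uncoupling proteins, 5 regulators and 3 genes of lipid droplets and thioesterases.

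The heart meets most of its energy demand by burning long-chain fatty acids. These enter the myocyte, are activated to acyl-CoA, cross the inner mitochondrial membrane as carnitine esters and are shortened by repeated cycles of β-oxidation. The nuclear receptors of the PPAR family, together with the coactivator encoded by Ppargc1a, drive transcription of many of these genes. Newborn hearts switch from glucose and lactate towards fatty acids, and hypertrophic growth is known to go with a return towards glucose use.

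Myocytes came from hearts of Wistar rats aged 1 to 2 days and were separated from fibroblasts by density centrifugation. The groups, each of 2 arrays, were control without treatment, treatment with 50 µmol/l of phenylephrine, which activates α1-adrenergic receptors, and stretch in 2 axes to 112% over 24 h on a silicone membrane coated with collagen. The stretched cells had been cultured for 36 h and then kept without serum for 24 h; the sources used here do not give the growth surface and serum history of the other groups or the duration of the phenylephrine treatment. The protocol text of the phenylephrine arrays also lists endothelin-1 and angiotensin II, whereas titles and design name phenylephrine alone. RNA of several preparations was pooled before labelling, and no source says whether the paired arrays stem from separate cultures, so p-values measure only the spread between these arrays, which may be technical.

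Values are log2 signals as deposited, given for replicates 1 and 2 in that order. A change is the mean of one group minus that of the other, with its standard error (SE) from a limma fit to all 31042 probe sets, and a gene is said to rise or fall only at an adjusted p under 0.05. Signals of different probe sets are not comparable as transcript levels. Fewer cells of a type and less RNA per cell cannot be told apart in these bulk samples.

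The arrays were alike in their medians, from 8.30 to 8.33 log2, but not in width. The interquartile range was 1.89 to 1.92 on the replicate 1 arrays and 1.70 to 1.82 on the replicate 2 arrays, with phenylephrine replicate 2 the narrowest. That array also had the lowest spike-in median, 9.04 against 9.68 to 9.95 on the others. On every array 33 or 34 of the 38 members lay above the upper quartile of signals. On control replicate 2, 32 members were lower than on replicate 1, and 33 were so with phenylephrine, against 19 with stretch. Over all probe sets these shares were 54.0%, 61.7% and 59.2%. The differences between 3′ and 5′ control probe sets, which reflect RNA integrity, also separated the phenylephrine arrays, but not in 1 direction. They were lower for GAPDH, at 0.248 and 0.304 against 0.356 to 0.587 elsewhere, and for β-actin, at 1.04 and 0.970 against 1.10 to 1.41. For hexokinase they were higher, at 1.65 and 1.88 against 1.29 to 1.49. The part of these differences in the results below was not tested.

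The effect of the chemical stimulus was read from phenylephrine minus control. Fabp4 and Angptl4, which carry and regulate fatty acids, fell by 1.20 and 1.03 on the log2 scale, and Ech1, Cpt1a, Acaa2, Cpt2 and Decr1, of the carnitine shuttle and β-oxidation, fell less. Acsl4 rose. In all, 7 of 38 members (18.4%) fell, against 1.87% of all probe sets, and 1 of 38 (2.63%) rose, against 1.73%; the other 30 did not pass. The median change of the members was -0.31 log2, beside 0.01 over all probe sets, and 31 members had a change below 0 (81.6%, against 47.7% of all probe sets). Both phenylephrine arrays lay below both controls for 24 members (63.2%, against 22.1% of all probe sets) and above them for 4, Acsl3, Acsl4, Acot1 and Acot2, where 21.5% of all probe sets did so.

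**Figure D1:**
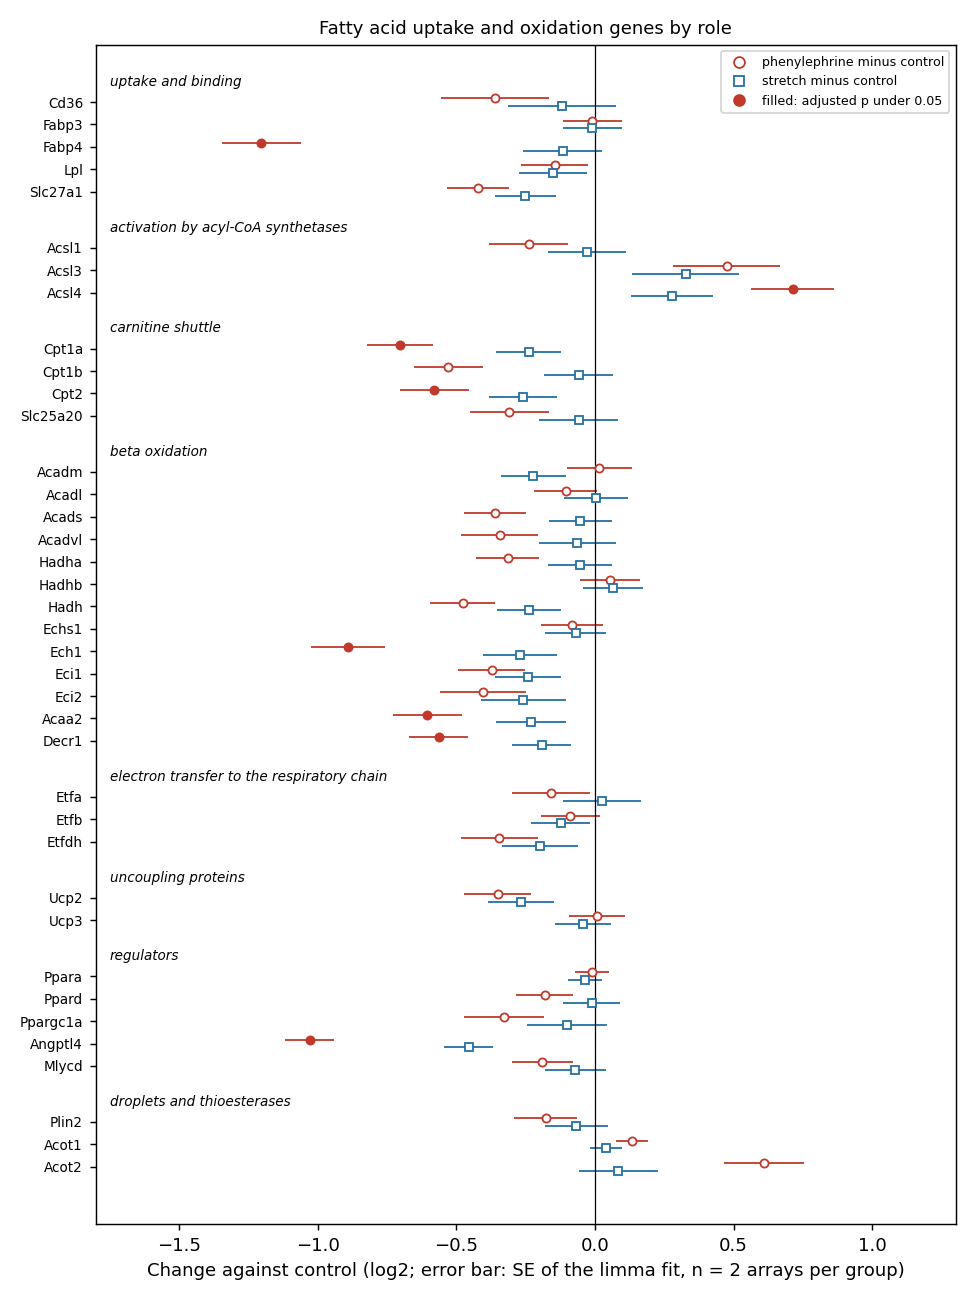
Change against control of 38 genes, grouped by role, in log2 (horizontal axis). Red circles stand for phenylephrine and blue squares for stretch, bars are the SE of the limma fit with 2 arrays per group, and filled symbols passed the threshold: 8 for phenylephrine and 0 for stretch.

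Among genes of uptake and binding, Fabp4, an intracellular fatty acid carrier best known from fat cells, macrophages and capillary endothelium, had signals of 11.17 and 11.07 in control, 10.09 and 9.74 with phenylephrine and 11.04 and 10.96 with stretch. The phenylephrine arrays stood below all 4 others. The fall with phenylephrine was 2.30-fold (-1.20 ± 0.14, SE; adjusted p = 0.00552) and ranked 25 among the falls of all probe sets. The other 4 genes of this group did not pass. Slc27a1, a transport protein with acyl-CoA synthetase activity, had 10.47 and 10.44 in control and 10.13 and 9.94 with phenylephrine, groups that do not overlap (-0.42 ± 0.11; adjusted p = 0.0947). Cd36, the main membrane receptor for long-chain fatty acids, spread from 12.11 to 12.65 in control alone, a wider gap than its difference from phenylephrine (-0.36 ± 0.20; adjusted p = 0.424). Lpl, the lipase that frees fatty acids from lipoproteins, had -0.15 ± 0.12. Fabp3, the heart form of the carrier, had -0.01 ± 0.11, at signals of 14.33 to 14.61 that lie close to the highest values on the arrays (14.74 to 15.18), where a change can be compressed.

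The acyl-CoA synthetases, which activate fatty acids on entry, were not uniform. Acsl4, which prefers arachidonic acid, was the only member that rose, from 9.87 and 9.67 in control to 10.64 and 10.34 with phenylephrine (1.64-fold; 0.71 ± 0.15; adjusted p = 0.0435). Its stretch arrays, at 10.18 and 9.92, lay between those groups. Acsl3 had 9.48 and 9.36 in control and 10.18 and 9.61 with phenylephrine, a change of 0.47 ± 0.19 (adjusted p = 0.269) in which the phenylephrine arrays differed from each other by more than the change. Acsl1, the main form of heart, had a change of the opposite sign, -0.24 ± 0.14 (adjusted p = 0.478).

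The carnitine shuttle carries acyl groups into the mitochondrion. All 4 of its genes had both phenylephrine arrays below both controls, where 22.1% of all probe sets did so. Of the 4 genes 2 fell, against 1.87% of all probe sets. Cpt1a, the liver form of the transferase on the outer membrane that limits the rate of entry, had 12.23 and 12.24 in control, 11.64 and 11.43 with phenylephrine and 11.96 and 12.03 with stretch. It fell 1.63-fold with phenylephrine (-0.70 ± 0.12; adjusted p = 0.0202). A second probe set of the gene had -0.22 and did not pass (adjusted p = 0.624). Cpt2, the transferase on the inner side, went from 11.43 and 11.30 to 10.86 and 10.71 (1.49-fold lower; -0.58 ± 0.12; adjusted p = 0.0479), close to the threshold. Cpt1b, the muscle form of the outer transferase, had 12.76 and 12.61 in control and 12.28 and 12.03 with phenylephrine, and did not pass (-0.53 ± 0.12; adjusted p = 0.0682). Slc25a20, the carnitine carrier, had -0.31 ± 0.14. The median of the 4 genes was -0.55.

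In mitochondrial β-oxidation 3 of 13 genes (23.1%) fell with phenylephrine, against 1.87% of all probe sets, and 0 rose. The median was -0.36. In 10 of the 13 both phenylephrine arrays lay below both controls, where 22.1% of all probe sets did so. Ech1, an isomerase needed for unsaturated acyl chains, had 13.58 and 13.36 in control, 12.72 and 12.44 with phenylephrine and 13.14 and 13.26 with stretch. Its fall, 1.85-fold (-0.89 ± 0.13; adjusted p = 0.0135), was the largest of the group. Acaa2, the thiolase of the last step of the cycle, went from 12.63 and 12.49 to 12.09 and 11.83 (-0.60 ± 0.13; adjusted p = 0.0435), and its second probe set had -0.07. Decr1, a reductase that also handles unsaturated chains, went from 12.90 and 12.82 to 12.35 and 12.24 (-0.56 ± 0.11; adjusted p = 0.0321). Of the 3 genes that fell, Ech1 and Decr1 are auxiliary enzymes for unsaturated fatty acids, and the 2 other auxiliary isomerases did not pass, with Eci1 at -0.37 ± 0.12 and Eci2 at -0.40 ± 0.15.

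The acyl-CoA dehydrogenases, which open each cycle according to chain length, did not pass. Their changes with phenylephrine were 0.02 ± 0.12 for Acadm (medium chain), -0.11 ± 0.11 for Acadl (long chain), -0.36 ± 0.11 for Acads (short chain) and -0.34 ± 0.14 for Acadvl (very long chain). Hadh, the dehydrogenase for shorter hydroxyacyl chains, had 12.94 and 12.75 in control and 12.44 and 12.30 with phenylephrine (-0.48 ± 0.12; adjusted p = 0.075). The hydratase gene Echs1 had -0.08 ± 0.11. Hadha and Hadhb encode the partner subunits of the mitochondrial trifunctional protein. Hadha had -0.31 ± 0.11 (adjusted p = 0.221) and Hadhb 0.06 ± 0.11 (adjusted p = 0.866); the difference between these genes was not tested.

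**Figure D2:**
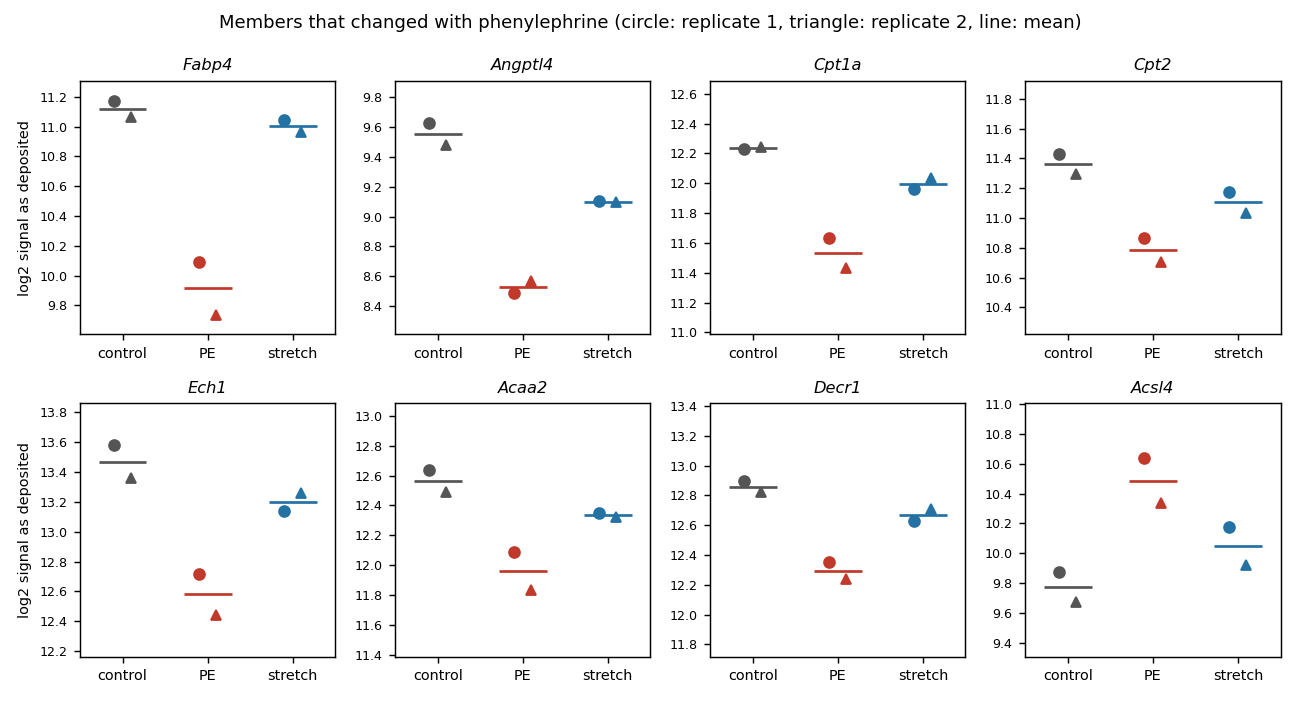
Log2 signal as deposited (vertical axis) of the 8 members that changed with phenylephrine (PE), on each of the 6 arrays. Circles are replicate 1, triangles replicate 2 and lines group means; all panels span the same range of log2. Fabp4 with stretch, at 11.04 and 10.96, stays near control, and Angptl4 with stretch, at 9.10 and 9.10, lies midway.

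Electron transfer flavoprotein and its dehydrogenase pass electrons from these dehydrogenases to the respiratory chain. None of the 3 genes passed. Etfdh had the largest value, with 12.11 and 11.87 in control, 11.77 and 11.52 with phenylephrine and 11.84 and 11.75 with stretch (-0.34 ± 0.14 for phenylephrine; adjusted p = 0.265). Etfa had -0.16 ± 0.14 and Etfb -0.09 ± 0.11. Of the uncoupling proteins, carriers of the inner membrane, Ucp2 had 11.48 and 11.57 in control, 11.26 and 11.09 with phenylephrine and 11.21 and 11.31 with stretch (-0.35 ± 0.12 for phenylephrine; adjusted p = 0.19). Ucp3 had 0.01 ± 0.10.

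Among regulators only Angptl4 passed. This secreted inhibitor of lipoprotein lipase is a well-known target of PPAR receptors and also of hypoxia. It had 9.63 and 9.48 in control, 8.49 and 8.57 with phenylephrine and 9.10 and 9.10 with stretch, with no overlap between any of the groups. Its fall with phenylephrine was 2.04-fold (-1.03 ± 0.09; adjusted p = 0.0022) and ranked 62 among all probe sets. The receptor genes themselves did not pass: Ppara had 7.89 and 7.98 in control and 7.91 and 7.94 with phenylephrine (-0.01 ± 0.06), a signal below the array median, and Ppard had -0.18 ± 0.10. Ppargc1a had 10.92 and 10.78 in control and 10.69 and 10.35 with phenylephrine (-0.33 ± 0.14; adjusted p = 0.309). Mlycd, which breaks down malonyl-CoA and so relieves the block on carnitine transfer, had -0.19 ± 0.11.

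Of the genes of storage and thioester cleavage 0 of 3 passed in limma; before adjustment 2 were under 0.05, as were 16.6% of all probe sets. Acot2, a mitochondrial thioesterase that releases free fatty acids from acyl-CoA, had 10.50 and 10.43 in control, 11.25 and 10.89 with phenylephrine and 10.62 and 10.48 with stretch. Its value for phenylephrine did not pass (0.61 ± 0.14; adjusted p = 0.0677), and its other probe sets had 0.27 and 0.84. A probe set shared by Acot2 and its close relative Acot1 was not used. Acot1, the cytosolic form, had a signal of 7.14 to 7.31, among the dimmest probe sets, and 0.13 ± 0.06. Plin2, a coat protein of lipid droplets, had -0.18 ± 0.11 on its brightest probe set and -0.56 on a second one (adjusted p = 0.0773), so its probe sets disagree in size. With stretch they disagree in sign, at -0.07 and 0.16, and the counts of members use the first.

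Promoter sequences were examined for the members. Of the 38 members, 30 had an entry among RefSeq promoters of build GRCr8, and of the 8 changed members Cpt1a, Cpt2, Angptl4 and Acsl4 did. Members without an entry were Fabp4, Lpl, Cpt1b, Acadl, Ech1, Acaa2, Decr1 and Ppard. The 250 bases before the annotated start are printed for these 4, in the direction of the gene, because their signals changed, Acsl4 upwards and the others downwards. The window of Hadha is added because it is shared with its partner subunit. The regions are chr7:15258682-15258931 on the minus strand for Angptl4, chr1:209995910-209996159 on the plus strand for Cpt1a, chr5:127910819-127911068 on the minus strand for Cpt2, chrX:110803262-110803511 on the minus strand for Acsl4 and chr6:31907551-31907800 on the plus strand for Hadha. Capitals mark the TATA motif TATAAA and the GC box GGGCGG on either strand, which were chosen after the letters had been seen; neighbouring matches can overlap.
Angptl4: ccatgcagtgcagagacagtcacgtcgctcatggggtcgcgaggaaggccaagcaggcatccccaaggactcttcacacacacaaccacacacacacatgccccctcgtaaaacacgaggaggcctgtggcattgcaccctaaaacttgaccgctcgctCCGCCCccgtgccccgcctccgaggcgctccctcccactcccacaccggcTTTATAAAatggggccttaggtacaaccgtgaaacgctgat
Cpt1a: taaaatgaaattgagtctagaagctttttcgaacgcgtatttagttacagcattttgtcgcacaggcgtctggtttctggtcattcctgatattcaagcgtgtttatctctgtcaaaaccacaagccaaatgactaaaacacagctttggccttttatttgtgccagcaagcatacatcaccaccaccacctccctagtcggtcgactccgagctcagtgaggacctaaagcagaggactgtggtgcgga
Cpt2: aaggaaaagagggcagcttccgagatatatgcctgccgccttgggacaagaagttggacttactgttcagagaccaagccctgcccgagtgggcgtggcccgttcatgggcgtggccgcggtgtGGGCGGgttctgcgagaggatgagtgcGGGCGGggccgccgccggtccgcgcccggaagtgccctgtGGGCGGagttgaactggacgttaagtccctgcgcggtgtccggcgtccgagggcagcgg
Acsl4: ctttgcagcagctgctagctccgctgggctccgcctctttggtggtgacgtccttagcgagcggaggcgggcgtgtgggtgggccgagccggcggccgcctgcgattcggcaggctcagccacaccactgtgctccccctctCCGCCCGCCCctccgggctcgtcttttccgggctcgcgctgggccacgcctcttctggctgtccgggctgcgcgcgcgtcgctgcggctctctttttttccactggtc
Hadha: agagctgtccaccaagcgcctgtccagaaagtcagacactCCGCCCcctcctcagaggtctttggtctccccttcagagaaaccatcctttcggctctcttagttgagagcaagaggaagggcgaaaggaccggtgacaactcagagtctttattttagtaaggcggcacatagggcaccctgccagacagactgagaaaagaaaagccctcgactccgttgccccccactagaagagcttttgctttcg

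Nuclear receptors of the PPAR and ERR families bind sites built on the hexamer AGGTCA. It was found on either strand in the windows of 5 of 30 members (16.7%), Acadvl, Echs1, Eci1, Slc27a1 and Ucp3, against 13.7% of 27457 RefSeq genes. None of these 5 is among the changed members. The DR1 element (the hexamer, 1 base and the hexamer again), which holds that hexamer, was found in 0 of 30 members and 0.0546% of all genes. The ERR element TCAAGGTCA, which also holds it, was in 0 of 30 and 0.368%. No match says only that these letters are not in this window. TATAAA was in 3 of 30 (10.0%, against 13.1%), and Angptl4 has it between 41 and 34 bases before its start. GGGCGG was in 17 of 30 (56.7%, against 32.4%). The median GC content of the 30 member windows, with or without this motif, was 60.4%, against 52.0% for all genes.

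Hadha and Hadhb lie head to head on chromosome 6, with 301 bases between their annotated starts, and 200 bases of their windows are the same. Their signals with phenylephrine were 12.42 and 12.33 for Hadha, below both controls at 12.75 and 12.63, and 13.39 and 13.30 for Hadhb, between its controls at 13.40 and 13.19. Acot1 and Acot2 start 24434 bases apart on the same strand of that chromosome, and Ucp2 and Ucp3 start 23463 bases apart on chromosome 1.

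The effect of the mechanical stimulus was read from stretch minus control. None of the 38 members passed in limma, where 0.345% of all probe sets did, and 1 had an unadjusted p under 0.05. This was Angptl4, lower by 1.37-fold (-0.46 ± 0.09; adjusted p = 0.135); 1.94% of all probe sets were lower by that rule. With quantile normalization Angptl4 and Ech1 passed, and with a term for the replicate number Angptl4 did. The median change of the members was -0.07, beside 0.01 over all probe sets, and 31 had a change below 0 (81.6%, against 47.2%). That median was -0.17 without control replicate 2 and -0.05 without control replicate 1. Changes ran from -0.46 for Angptl4 to 0.33 for Acsl3. In 18 members (47.4%) both stretch arrays lay below both controls, against 16.5% of all probe sets. All 10 fibroblast markers did so too, with a median of -0.23 and 4 at an unadjusted p under 0.05; their part in the members' values was not tested. Among the 18 members, Ucp2 had -0.27 ± 0.12, Ech1 -0.27 ± 0.13, Cpt2 -0.26 ± 0.12, Slc27a1 -0.25 ± 0.11 and Cpt1a -0.24 ± 0.12, all with adjusted p above 0.9. Medians by role were -0.15 for the carnitine shuttle, -0.19 for β-oxidation and -0.12 for uptake and binding, and 0.28 for the synthetases.

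**Figure D3:**
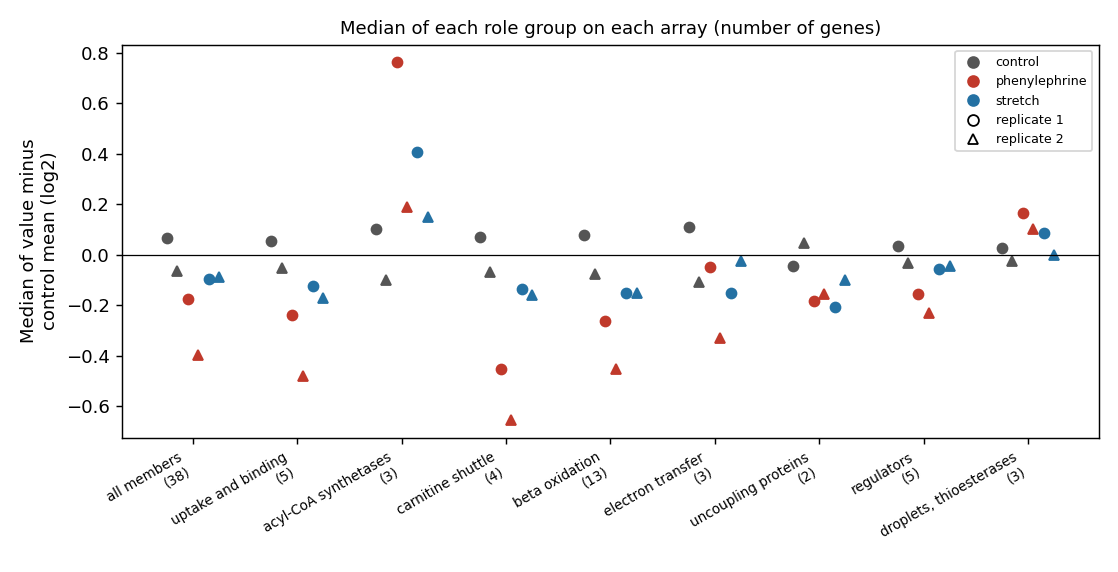
Median over the genes of each role of the log2 value minus the gene's control mean (vertical axis), for each of the 6 arrays; the number of genes stands in brackets. Circles are replicate 1 and triangles replicate 2. For the carnitine shuttle the phenylephrine arrays lie at -0.45 and -0.65 and the stretch arrays at -0.14 and -0.16; for all 38 members the phenylephrine arrays lie at -0.17 and -0.40.

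Stretch against phenylephrine tested the difference between the stimuli directly. It shares the phenylephrine arrays with the comparison above, so its values are not separate evidence. Fabp4 and Angptl4 were higher with stretch, 2 of 38 members (5.26%) against 0.718% of all probe sets, and 0 were lower. Fabp4 was 2.12-fold higher (1.09 ± 0.14; adjusted p = 0.0155), and its stretch minus control was -0.12 ± 0.14. Angptl4 was 1.49-fold higher (0.57 ± 0.09; adjusted p = 0.0291). Both stretch arrays lay above both phenylephrine arrays in 19 members (50.0%), against 21.6% of all probe sets, and the median difference was 0.16. For the other genes that fell with phenylephrine the difference did not pass, with 0.62 ± 0.13 for Ech1 (adjusted p = 0.0835), 0.46 ± 0.12 for Cpt1a (adjusted p = 0.133), 0.37 ± 0.11 for Decr1, 0.37 ± 0.13 for Acaa2 and 0.32 ± 0.12 for Cpt2. In 9 of the 38 members (23.7%, against 48.4% of all probe sets) the difference was below 0. In 4 of the 38, Acot2, Acsl4, Acadm and Acot1, both stretch arrays lay below both phenylephrine arrays, as they did in 5353 of all 31042 probe sets. Acot2 had -0.53 ± 0.14 (adjusted p = 0.164), Acsl4 -0.44 ± 0.15 (adjusted p = 0.273), Acadm -0.24 ± 0.12 (adjusted p = 0.47) and Acot1 -0.09 ± 0.06 (adjusted p = 0.588).

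Most of these calls did not hold in every fit that left out 1 array, and the cause was not tested. Angptl4 was the only member whose fall with phenylephrine passed in all 6 fits that left out 1 array; its change then lay between -1.10 and -0.95. Fabp4 passed in 5 of 6, with an adjusted p of 0.0508 without control replicate 1, and Ech1 in 4. Cpt1a, Cpt2, Acaa2, Decr1 and Acsl4 each passed in 1 of 6. The number of members changed was 1 without control replicate 1, 3 without control replicate 2, 9 without phenylephrine replicate 1 and 4 without phenylephrine replicate 2. It was 3 without stretch replicate 1 and 3 without stretch replicate 2, which enter only through the shared spread. The members' median moved to -0.17 without phenylephrine replicate 2, to -0.20 without control replicate 1 and to -0.40 without phenylephrine replicate 1. For stretch against phenylephrine the count was 1 in each of the 4 fits that left out a control or phenylephrine array, which was Fabp4, and 0 without stretch replicate 1 or 2.

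Other genes of fatty acid and fuel metabolism were followed in separate lists of 55 genes. Of 49 measured 5 fell (10.2%, against 1.87% of all probe sets) and 2 rose (against 1.73%) with phenylephrine, and the median was -0.13. With stretch 0 of 49 passed in limma; before adjustment 5 (10.2%) had a p under 0.05, against 5.54% of all probe sets. Higher with stretch than with phenylephrine were 4 (8.16%), against 0.718%. Pdk2 and Pdk4 encode kinases that shut the pyruvate dehydrogenase complex and so spare glucose when fat is burned. Pdk2 had 12.79 and 12.79 in control, 11.80 and 11.45 with phenylephrine and 12.44 and 12.64 with stretch, a 2.25-fold fall with phenylephrine (-1.17 ± 0.14; adjusted p = 0.00672). Pdk4 had 11.18 and 11.01, 10.20 and 9.90, and 10.71 and 10.55 in the same order, and fell 2.06-fold (-1.04 ± 0.14; adjusted p = 0.00978). For both genes the phenylephrine arrays lay below all others.

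Plin4 and Plin5 encode droplet coat proteins of muscle and fat. Plin4 had 10.49 and 10.30 in control, 9.41 and 9.13 with phenylephrine and 10.12 and 10.08 with stretch (2.18-fold lower with phenylephrine; -1.12 ± 0.13; adjusted p = 0.00488). Plin5, which ties droplets to mitochondria, had 9.50 and 9.49, 8.61 and 8.49, and 9.35 and 9.23 (1.93-fold lower; -0.95 ± 0.09; adjusted p = 0.00308). The falls of Plin4 and Plin5 passed in all 6 omissions, that of Pdk2 in 5 and that of Pdk4 in 4. The 3 remaining calls, named after their values were seen, were a fall of Pex11a, a peroxisome division factor (-0.61 ± 0.06; adjusted p = 0.00338), and rises of the ketone body enzyme Bdh1 (0.71 ± 0.09) and the droplet protein Plin3 (0.66 ± 0.13, which passed in 1 of 6 omissions). Against phenylephrine, stretch was higher for Pdk2 (0.91 ± 0.14), Plin4 (0.83 ± 0.13), Plin5 (0.75 ± 0.09) and the carrier gene Fabp5 (0.74 ± 0.14; adjusted p = 0.0493). The Fabp5 and Pdk2 differences each passed in 1 of 6 omissions, that of Plin4 in 2 and that of Plin5 in 4. Of 9 genes of peroxisomal oxidation 1 fell with phenylephrine, Pex11a (11.1%, against 1.87% of all probe sets). None of the 9 passed in the comparisons with stretch. Before adjustment in limma 4 of the 9 were lower with phenylephrine at a p under 0.05, as were 2974 of all 31042 probe sets.

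**Figure D4:**
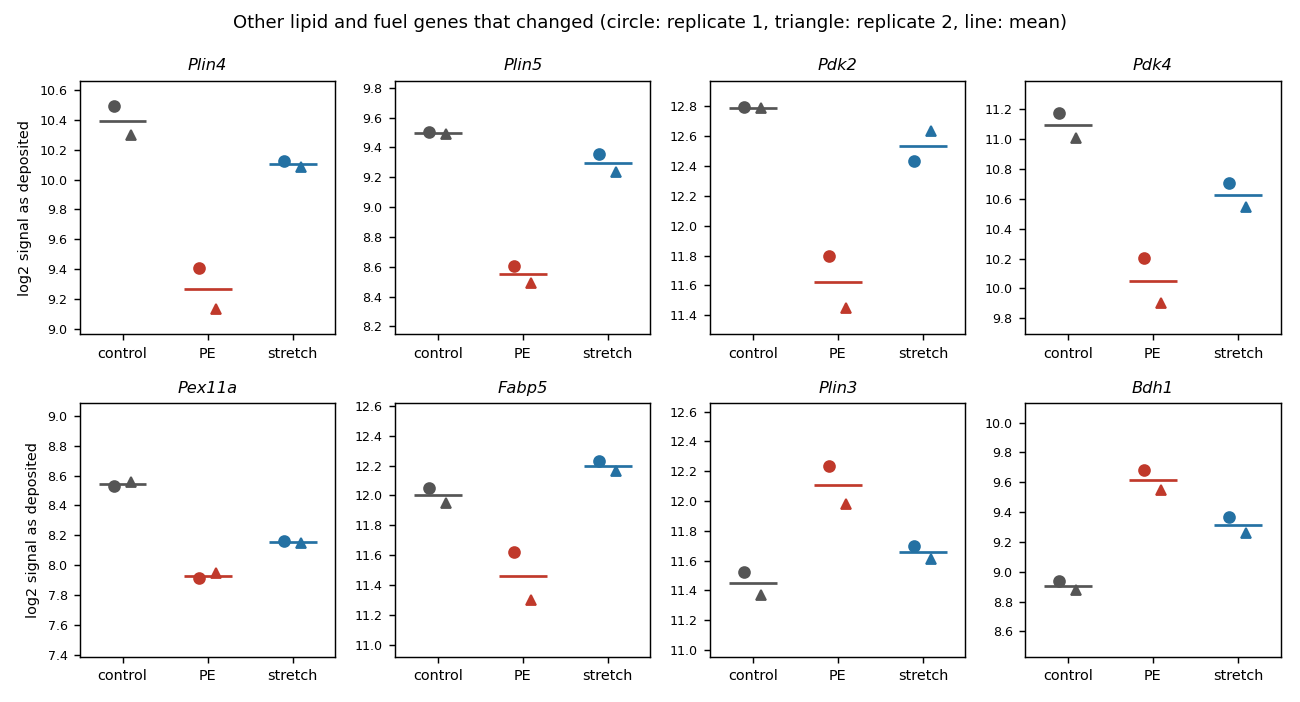
Log2 signal as deposited (vertical axis) of 8 lipid and fuel genes outside the member list that changed in a comparison, on each of the 6 arrays; PE is phenylephrine. Circles are replicate 1, triangles replicate 2 and lines group means; all panels span the same range of log2. Plin5 with phenylephrine, at 8.61 and 8.49, lies below its 4 other arrays.

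Markers of other cell types moved with phenylephrine, and their part in the results was not tested. Of all probe sets 1.87% fell with phenylephrine, the share to set beside the falls counted here. Of 10 fibroblast markers 4 (40%) fell with phenylephrine (median -0.53). The log2 of their summed signal was 15.41 to 15.44 in control, 14.91 to 14.97 with phenylephrine and 15.13 to 15.19 with stretch. Of 7 endothelial markers 2 (28.6%) fell, Kdr by -0.93 and Emcn by -0.55, with sums of 11.68 to 11.72, 11.26 to 11.32 and 11.55 to 11.60. On each array 4 or 5 of the 7 endothelial markers lay below the array median, so the sums rest on the few brighter ones. Between stretch and phenylephrine 1 of these 7 was higher with stretch, Kdr (0.80), against 0.718% of all probe sets. In 3 of the 7 the difference was below 0, as in 48.4% of all probe sets. Of 6 macrophage markers 1 (16.7%) fell, Cd68 by -0.52, with sums of 12.99 to 13.02, 12.56 to 12.65 and 12.95 to 12.99. Cd163 (0.06) and Adgre1 (0.10) had changes above 0 with phenylephrine and did not pass. From 2 to 4 of the 6 macrophage markers lay below the array median. Adipocyte markers were near the bottom of the range: all 5, among them Adipoq and Plin1, lay below the median of every array, and 0 of 5 passed in limma, nor did any at an unadjusted p under 0.05 (0 of 5). Of 9 cardiomyocyte markers Nppa rose (1.05), where 1.73% of all probe sets rose, and 0 fell. Their sums were 17.39 to 17.50, 17.63 to 17.81 and 17.41 to 17.65. Of 6 smooth muscle and pericyte markers Cnn1 and Acta2 rose with phenylephrine, where 1.73% of all probe sets rose. Cnn1 also rose with stretch, as did 95 of all 31042 probe sets. The sums of this list were 12.23 to 12.25, 12.82 to 13.03 and 12.60 to 12.64. The list did not move as 1 group: with phenylephrine 4 of the 6 had a change below 0, as did 47.7% of all probe sets, and the median was -0.08. None of the cardiomyocyte markers lay below the median of any array.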

How the data were processed

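The deposited table holds 1 log2 value per probe set and array; log2 was inferred from the range of the values, and the sources used here do not give the authors' summary, background correction and normalization. Array medians differed by 0.038, under the limit of 0.3, so the values were kept. Of 31099 rows 57 array controls were left out. Genes came from the platform annotation; 20826 probe sets had 1 symbol, 436 several and 9780 none, and 20758 matched RefSeq by Entrez identifier. Differences were fitted with limma 3.58.1 in R 4.3.3 (lmFit, eBayes with a mean-variance trend) on all 6 arrays with 1 mean per group, two-sided, with Benjamini-Hochberg adjustment over 31042 probe sets at 0.05. Residual degrees of freedom were 3, with 4.8 added by the prior. With 2 arrays per group an exact permutation p has a floor of 0.333, so that test was not used. The fit was tested on simulated data. Members and lists were chosen with earlier results of these data known. Named were all members, with full values for those past the threshold in any comparison and, in a role with none, for the member with the largest change; of other pathway genes, up to 4 per comparison with the largest changes past the threshold. The number of arrays limits the precision. Promoter letters were read from RefSeq (GRCr8), taking the first listed start of each gene. Quantile normalization, a fit without the trend, a filter on dim probe sets, a term for the replicate number, other probe sets and omission of each array were tried as alternatives.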

Additional observations from a re-analysis of the deposited data

How the results depend on the processing

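With quantile normalization 23 members changed with phenylephrine (21 lower, 2 higher), 2 with stretch (Ech1 and Angptl4, both lower) and 10 between stretch and phenylephrine (8 higher with stretch); over all probe sets the counts were 2790, 386 and 1527 in place of 1117, 107 and 413, and 72.5% of the stretch calls were rises in place of 88.8%. With the replicate block, a term for the replicate number, 22, 1 (Angptl4, with stretch) and 11 members changed, and 5384, 1028 and 3734 probe sets. The labels do not say that equal numbers belong together; deviations of same-numbered arrays correlated at 0.487 to 0.673. Both settings kept all 8 phenylephrine calls of the members. Without 1 array, member counts ran from 1 to 9, from 0 to 0 and from 0 to 1, and medians from -0.40 to -0.17 for phenylephrine, from -0.172 to -0.0548 for stretch and from 0.060 to 0.269 between the stimuli. Over all probe sets the counts ran from 189 to 1249, from 26 to 112 and from 51 to 473. The cause of these shifts was not tested. The fit without the trend gave 11, 0 and 2 members, and that without the dimmest probe sets (20694 kept) 8, 0 and 2. With the probe set of smallest p for each gene the counts were also 8, 0 and 2. Among the members given in full, 1 value changed sign, Ucp2 between stretch and phenylephrine, which ran from -0.0057 to 0.173 without 1 array.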
